A study of Homo sapiens with 9 samples.

Results

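The squamous lineage transcription factors examined here are 10 genes: TP63, SOX2, KLF4, KLF5, GRHL2, GRHL3, TFAP2A, TFAP2C, OVOL1 and ZNF750. They were taken from a list by name, and all 10 were found among the 52165 gene identifiers that the count tables of both cell lines hold. Polyadenylated RNA had been sequenced from 2 established lines of esophageal squamous cell carcinoma, the cancer of the stratified lining of the esophagus. The 9 libraries form 4 groups: 2 of Kyse150 with an shRNA against KDM2A (shKDM2A), 2 of Kyse150 with the control shRNA (shNC), 2 labelled TE11 shKDM2A and 3 of TE11 shNC. Per the series' design text the shRNA was delivered by lentivirus, so cells of every group carried an shRNA. Its sequence, and whether more than 1 was used, are unstated in the labels and design text. All cells were grown in the same medium with serum. The labels call the replicates independent without saying what was repeated. The p-values therefore cover the scatter of these libraries only, and that scatter may be technical. RNA came from whole cultures, so fewer cells of a kind and less RNA per cell cannot be told apart.

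Stratified squamous epithelium grows from a basal layer whose cells divide, then leave that layer and build up keratins and cornified envelope proteins as they move outward. TP63 encodes p63, the factor that defines the basal squamous state, and SOX2 works beside it in the esophagus. KLF5 is expressed in proliferating basal cells, whereas KLF4, OVOL1, ZNF750 and GRHL3 act as cells leave the basal layer. GRHL2 and GRHL3 maintain epithelial junction genes, and TFAP2A and TFAP2C are AP-2 factors of surface epithelium. KDM2A is a histone demethylase with a CXXC zinc finger, a domain that binds DNA at unmethylated CG pairs. Gene counts do not separate the p63 isoforms.

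KDM2A itself, which checks the labels, was lower in the Kyse150 knockdowns, with 719 and 646 counts in shKDM2A libraries against 1215 and 1199 in shNC libraries (log2 fold change -0.71, SE 0.071; edgeR adjusted p = 3.87e-09). It was not lower in the libraries labelled TE11 shKDM2A, which stood at 132 and 146 CPM against 124, 121 and 124 CPM in TE11 shNC libraries (log2 0.16, SE 0.070; edgeR adjusted p = 0.0335). That call was lost without labelled replicate 2 (edgeR adjusted p = 0.398), TE11 shNC replicate 2 (0.0772) or TE11 shNC replicate 3 (0.0969). It was also lost under DESeq2 (adjusted p = 0.0792) and, in edgeR, under upper-quartile scaling (0.185), with no filter (0.0546) and with the replicate number as a block (0.117). KDM2A thus contradicts the label of those 2 libraries, and every TE11 direction below is between libraries as labelled. Over 15895 genes in both tables, the libraries labelled TE11 shKDM2A correlated at 0.928 to 0.932 with Kyse150 shNC and at 0.829 to 0.831 with TE11 shNC (Pearson r of log2(CPM + 1) across genes, which are not independent replicates). CPM are counts scaled to library size, with 1 scaling over all 9 libraries. Gene counts per library were 6052883 to 7167055 in Kyse150 and 8457767 to 12073098 in TE11. The squamous label was checked on KRT5, a basal keratin, which averaged 1017 CPM in Kyse150 shKDM2A, 1205 in Kyse150 shNC, 1055 in labelled TE11 shKDM2A and 2781 in TE11 shNC. KRT14, DSG3, PERP and COL17A1 were also detected in all 4 groups, at 6.51 CPM or more on average. KRT8 and KRT18, keratins of columnar epithelium, averaged above KRT5 in every group but TE11 shNC. KRT8 averaged 4998 CPM in Kyse150 shKDM2A, 4574 in Kyse150 shNC, 4581 in labelled TE11 shKDM2A and 1958 in TE11 shNC. Because the 2 tables were made with different annotations, levels set across lines may carry that difference.

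Promoters are shown for SOX2 and GRHL3, whose counts were near 0 in the libraries labelled TE11 shKDM2A and well above it in TE11 shNC, and for TFAP2A, which was present in every library. Each is 200 bases, from 250 to 51 bases before a RefSeq transcript start (GRCh38.p14), read 5′ to 3′ on the strand of the gene, with each CG in capitals. CG was the only motif searched, it reads the same on both strands, and occurrences do not overlap. By symbol, 6 of the 10 factors were matched: TP63, SOX2, KLF4, KLF5, GRHL3 and TFAP2A.
SOX2, chr3:181711675-181711874, forward: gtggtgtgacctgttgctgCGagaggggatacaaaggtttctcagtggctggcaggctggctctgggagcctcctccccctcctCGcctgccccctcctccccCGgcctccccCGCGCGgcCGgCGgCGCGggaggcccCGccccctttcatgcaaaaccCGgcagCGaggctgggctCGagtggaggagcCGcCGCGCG
GRHL3 start 1, chr1:24319107-24319306, forward: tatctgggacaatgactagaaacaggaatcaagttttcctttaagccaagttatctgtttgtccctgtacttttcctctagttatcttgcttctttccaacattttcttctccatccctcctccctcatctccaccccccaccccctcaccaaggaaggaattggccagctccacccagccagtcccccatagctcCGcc
TFAP2A start 1, chr6:10419710-10419909, reverse: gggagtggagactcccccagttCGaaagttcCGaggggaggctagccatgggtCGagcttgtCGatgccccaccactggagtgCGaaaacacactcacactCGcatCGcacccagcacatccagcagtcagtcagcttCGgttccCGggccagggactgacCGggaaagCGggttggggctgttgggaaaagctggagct
The SOX2 window holds 18 CG pairs, the GRHL3 window 1 and the TFAP2A window 11. Among 35116 windows of the same length from all RefSeq starts in the table, 91.4% held at least 1 CG and the median was 8. As many or more than in SOX2 were held by 24.7% of windows, as many or more than in TFAP2A by 42.8%, and as many or more than in GRHL3 by 91.4%. A second GRHL3 start had 9 CG pairs, a second TFAP2A start 13, the single TP63 window had 4, the KLF4 window had 19, and the 2 KLF5 starts 3 and 23. The factors that were near 0 and those that were present thus both include windows rich and poor in CG, as a description of these letters alone. Which of these starts is in use in these cells was not tested.

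The genes lie apart in the genome (GRCh38, GENCODE release 29). TP63 (ENSG00000073282) lies on chromosome 3 from 189631416 to 189897279 and SOX2 (ENSG00000181449) on the same chromosome from 181711924 to 181714436, both on the forward strand. SOX2 sits inside the longer transcript SOX2-OT with no exon base in common. KLF4 (ENSG00000136826) is on chromosome 9 from 107484852 to 107490482 (reverse), KLF5 (ENSG00000102554) on chromosome 13 from 73054976 to 73077542 (forward) and GRHL2 (ENSG00000083307) on chromosome 8 from 101492432 to 101669726 (forward). GRHL3 (ENSG00000158055) is on chromosome 1 from 24319322 to 24364482 (forward), TFAP2A (ENSG00000137203) on chromosome 6 from 10393186 to 10419659 (reverse) and TFAP2C (ENSG00000087510) on chromosome 20 from 56629302 to 56639283 (forward). OVOL1 (ENSG00000172818) is on chromosome 11 from 65787022 to 65797219 (forward). ZNF750 (ENSG00000141579) is on chromosome 17 from 82829435 to 82840578 (reverse), inside the opposite-strand gene TBCD with no exon base in common. For OVOL1, 27.1% of its 3849 exon bases are shared with exons of the opposite-strand gene AP001266.1, and for TFAP2A 16.7% of its 8274 exon bases are shared with antisense exons. The strand setting of the counting is unknown here, so it is not known to which gene reads over those stretches were given, or whether they were set aside as ambiguous.

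Levels were compared between genes per kilobase of exon (GENCODE 29 union exons), since long transcripts yield more fragments. In TE11 shNC the leading factors were KLF5 at 38.0 CPM per kilobase, TP63 at 31.0 and TFAP2C at 28.1. GRHL2 (11.3), SOX2 (8.77), TFAP2A (6.42) and OVOL1 (4.56) were intermediate, and GRHL3 (2.08), KLF4 (1.82) and ZNF750 (0.637) were lowest on that scale. In Kyse150 shNC, TFAP2C (17.5), TP63 (13.6), KLF5 (13.2), GRHL2 (12.6) and TFAP2A (10.6) formed the upper 5, KLF4 followed at 2.74, and OVOL1, ZNF750, SOX2 and GRHL3 were each at 0.588 CPM per kilobase or less. Both lines thus shared TP63, KLF5, TFAP2C and GRHL2 among their most abundant factors, while SOX2 had rank 5 in TE11 shNC and only 1 and 0 counts in the Kyse150 shNC libraries.

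**Figure D1:**
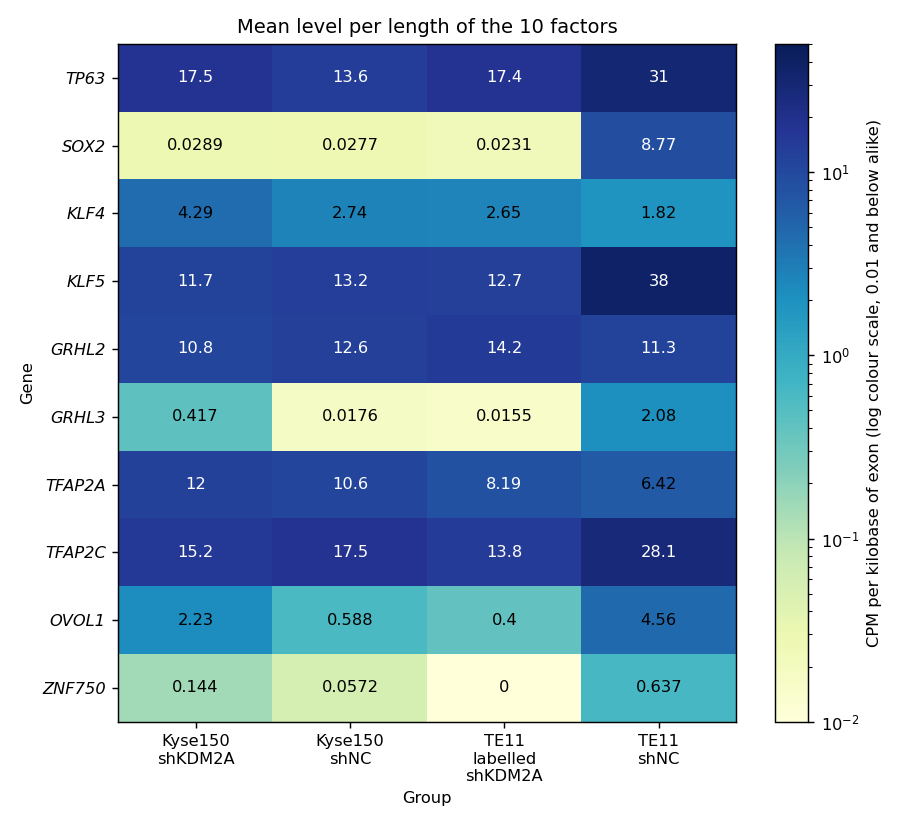
Mean level of each factor in CPM per kilobase of exon, with the 4 groups as columns and the 10 genes as rows on a log colour scale. SOX2 reads 0.0289 or less in Kyse150 shKDM2A, Kyse150 shNC and labelled TE11 shKDM2A and 8.77 in TE11 shNC, whereas TP63 lies between 13.6 and 31.0 in all 4.

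In Kyse150 the comparison of shKDM2A with shNC asks which transcripts differ when KDM2A is reduced. TP63, KLF4 and OVOL1 were higher in the knockdowns, no factor was lower at the threshold, and GRHL3 had more counts in the knockdowns, at a low level. The filter on low counts kept 7 of the 10 factors, leaving out SOX2, GRHL3 and ZNF750. Of the 7, 3 were called higher and 0 lower (adjusted p under 0.05 in edgeR's quasi-likelihood test, 2 libraries a group). Of all 14060 genes tested 48.2% were called, 24.8% higher and 23.3% lower. How many of all genes had groups without overlap was not counted in either line, so lack of overlap, where given below, describes the libraries only. At an unadjusted p under 0.05, 4 factors were higher, TFAP2A being added, and 1 was lower (GRHL2, which was called without shNC replicate 1, edgeR adjusted p = 0.0493), and DESeq2 called 2 higher and 0 lower.

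TP63 stood at 125 and 135.0 CPM in shKDM2A libraries against 107 and 96.3 CPM in shNC libraries, so both knockdowns lay above both controls. The rise was 1.29-fold (95% interval 1.15 to 1.44; log2 SE 0.077; edgeR adjusted p = 0.000296). KLF4, a factor of differentiating suprabasal cells, stood at 15.4 and 16.0 CPM in shKDM2A libraries against 9.73 and 10.3 CPM in shNC libraries, again without overlap. Its rise was 1.57-fold (1.21 to 2.05; log2 SE 0.18; edgeR adjusted p = 0.00437), and DESeq2 did not call it (log2 0.64, adjusted p = 0.111). Both genes had levels above 9 CPM in every Kyse150 library.

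OVOL1, a zinc finger repressor that restrains proliferation as keratinocytes leave the basal layer, had 54 and 59 counts in shKDM2A libraries against 12 and 20 in shNC libraries. As levels these were 7.86 and 9.32 CPM in the knockdowns against 1.67 and 2.86 CPM in the controls, and the groups did not overlap. The rise was 3.79-fold (2.39 to 6.02; log2 SE 0.33; edgeR adjusted p = 7.89e-06). The antisense gene that shares OVOL1 exons moved alongside, with 33 counts in the 2 knockdowns together against 19 in the 2 controls. Its part in the OVOL1 value was not tested.

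The other differentiation factors were sparse. GRHL3, which drives barrier formation in skin, had 15 and 7 counts in shKDM2A libraries against 1 and 0 in shNC libraries, a ratio of 23.8 with an exact 95% counting interval of 3.84 to 981. Its smallest value on leaving out a library came without shNC replicate 1, 3.9-fold as a lower bound, which puts the remaining control at 3 counts, and it was 12.1 without shNC replicate 2 and 15.8 without shKDM2A replicate 1. Without the filter on low counts GRHL3 was called (edgeR adjusted p = 0.00023). In 1 fit of all 9 libraries, which it entered through TE11 shNC, it was called as well (edgeR adjusted p = 0.000145). The CPM above 1 filter also gave a call (edgeR adjusted p = 0.000536). GRHL3 passed that filter, and those of the fits with a library left out, only through the knockdown libraries, where it is high. Calls from those fits are therefore no added support. ZNF750, a p63 target that promotes differentiation, had 3 and 4 counts in shKDM2A libraries against 1 and 2 in shNC libraries, a ratio of 2.52 (0.575 to 15.1) that counting error alone spans. SOX2 had 1 and 0 counts in shKDM2A libraries against 1 and 0 in shNC libraries, so no difference was detectable at this depth.

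The 4 remaining factors had values close to the controls. KLF5 stood at 43.8 and 47.4 CPM in shKDM2A libraries against 53.0 and 49.6 CPM in shNC libraries (log2 -0.16, 95% interval -0.374 to 0.046; edgeR adjusted p = 0.191). GRHL2 had 63.4 and 68.1 CPM in the knockdowns against 73.4 and 79.1 CPM in the controls (log2 -0.21, -0.39 to -0.023; edgeR adjusted p = 0.0581). For both genes the knockdown libraries lay below the controls without overlap, yet the adjusted test did not call them. TFAP2A had 98.3 and 99.8 CPM in the knockdowns against 89.8 and 85.5 CPM in the controls (log2 0.18, 0.023 to 0.345; edgeR adjusted p = 0.0549), with upper-quartile scaling bringing its adjusted p to 0.0279. TFAP2C had 42.8 and 48.5 CPM in the knockdowns against 50.7 and 54.6 CPM in the controls (log2 -0.20, -0.414 to 0.012; edgeR adjusted p = 0.111). The intervals of all 4 exclude a doubling or a halving. Sums of marker genes of other cell types also differed in these libraries: fibroblast markers (7 of 12 with a count in the knockdowns, 4 of 12 in the controls) summed to 14.1 to 15.4 CPM in shKDM2A libraries against 7.5 to 8.01 CPM in shNC libraries. Endothelial markers (4 of 7 and 5 of 7 with a count) summed to 39 to 39.3 CPM in the knockdowns against 16 to 20.6 CPM in the controls, leukocyte markers (5 of 12 and 4 of 12) to 4.65 to 4.9 against 2.43 to 2.78 CPM, and columnar epithelium markers (8 of 15 in both) to 7100 to 7650 against 6340 to 6430 CPM. Most of the endothelial sum was a single gene, EGFL7, which averaged 35.4 CPM in the knockdowns and 15.5 CPM in the controls. COL1A1 made up most of the fibroblast sum (10.7 CPM in the knockdowns and 6.28 CPM in the controls). KRT8 made up most of the columnar sum (4998 and 4574 CPM). Among the leukocyte markers CSF1R averaged 3.32 and 1.20 CPM. The leukocyte markers PTPRC and MS4A1 and the intestinal markers CDX1, CDX2 and TFF3 were at 0 counts in every group. COL1A2, DCN, PDGFRA and FAP of fibroblasts and KDR and TEK of endothelium were at 0 in both Kyse150 groups. The part of these sums in the results was not tested.

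**Figure D2:**
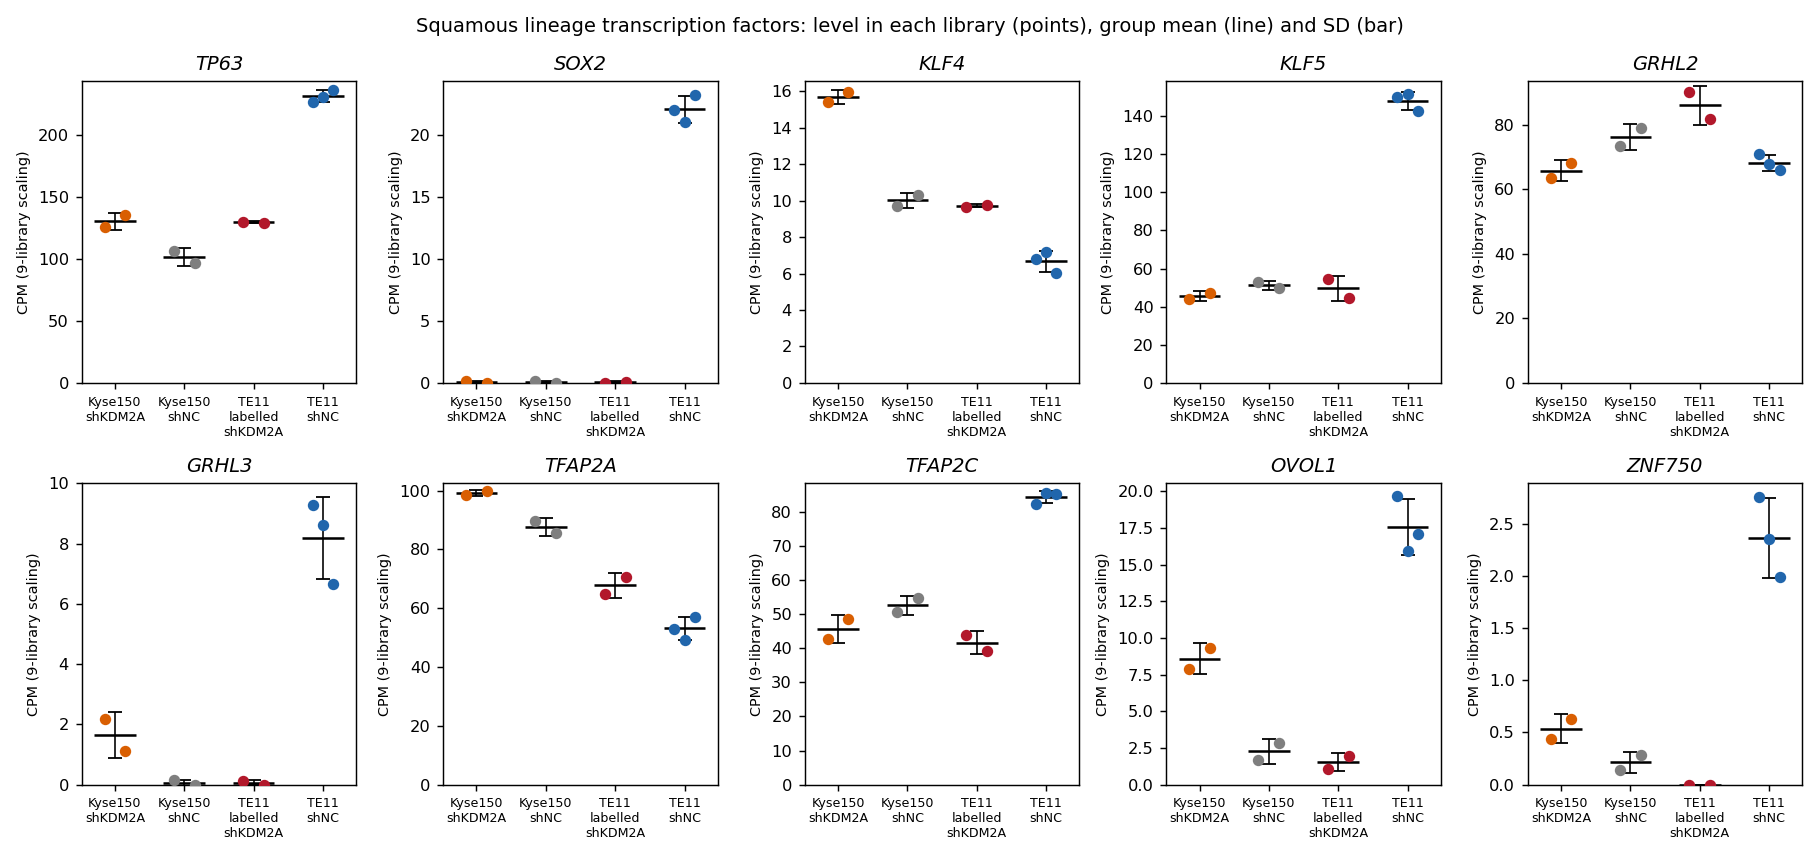
Level of each of the 10 factors in every library (points) in CPM scaled over the 9 libraries, with the group mean (line) and SD (bar), for Kyse150 shKDM2A and shNC and for labelled TE11 shKDM2A and TE11 shNC. SOX2 lies at 0.146 CPM or less in the first 3 groups and between 21.0 and 23.2 CPM in TE11 shNC, and TFAP2A is highest in Kyse150 shKDM2A.

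In TE11 the same comparison was made between the libraries labelled shKDM2A and shNC, in which KDM2A was not lower. SOX2, GRHL3 and ZNF750 were reduced to 1 count or none in the libraries labelled shKDM2A. OVOL1, KLF5, TFAP2C and TP63 were lower as well, while KLF4, GRHL2 and TFAP2A were slightly higher. All 10 factors were tested and all were called, 3 higher and 7 lower (adjusted p under 0.05 in the same test, 2 libraries against 3). In the same comparison 78.1% of all 16453 genes tested were called, 35.9% higher and 42.2% lower, so being called is the common case there. SOX2, GRHL3 and ZNF750 passed the filter through their TE11 shNC libraries alone and so had to differ. No value can be given without the 2 libraries labelled shKDM2A, since they are the whole of that group.

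SOX2 had 0 and 1 counts in the libraries labelled TE11 shKDM2A against 239, 232 and 268 in TE11 shNC. The level was 374-fold lower, with a counting interval of 67.0 to 14800 (edgeR adjusted p = 2.05e-23), 191-fold lower without labelled replicate 1 and at least 61-fold lower without labelled replicate 2. SOX2-OT, the transcript around SOX2, had 2 counts in the 2 labelled libraries together against 18 in the 3 controls. GRHL3 had 1 and 0 counts in the labelled libraries against 101, 95 and 77 in TE11 shNC, 138-fold lower (24.6 to 5480; edgeR adjusted p = 2.5e-15). Without labelled replicate 1 it was at least 23.6-fold lower and without labelled replicate 2 it was 67.6-fold lower. ZNF750 had 0 counts in both labelled libraries against 30, 26 and 23 in TE11 shNC, at least 13.3-fold lower against a floor of 3 counts over the group (edgeR adjusted p = 4.26e-08). With 1 of the labelled libraries left out, that bound is 6.52 or 6.82, because the floor then rests on a single library. No library of one group overlapped the other group for these 3 genes. Since they passed the filter through TE11 shNC alone, the lack of overlap and the calls describe the counts and are no added support.

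OVOL1 had 9 and 17 counts in the libraries labelled shKDM2A, or 1.10 and 1.98 CPM, against 214, 176 and 198 counts in TE11 shNC, or 19.6, 16.0 and 17.1 CPM. It fell to 0.0879 of TE11 shNC (log2 -3.51, SE 0.31; edgeR adjusted p = 6.71e-18), and the ratio of counts ran from 8.95-fold lower to 16.2-fold lower when single libraries were left out. Its antisense neighbour AP001266.1 went the same way, with 7 counts in the 2 labelled libraries together against 162 in the 3 controls. KLF5, the factor of proliferating basal cells, stood at 54.4 and 44.8 CPM in the labelled libraries against 150.1, 152 and 143 CPM in TE11 shNC. That is 0.331 of the TE11 shNC level (log2 -1.60, SE 0.082; edgeR adjusted p = 5.96e-22).

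TFAP2C stood at 44.0 and 39.2 CPM in the labelled libraries against 82.4, 85.6 and 85.3 CPM in TE11 shNC, or 0.487 of the control level (log2 -1.04, SE 0.086; edgeR adjusted p = 8.27e-15). TP63 stood at 129.9 and 129 CPM in the labelled libraries against 226, 231 and 236 CPM in TE11 shNC, or 0.555 of the control level (log2 -0.85, SE 0.066; edgeR adjusted p = 1.4e-15). Both genes remained far above the detection limit in the labelled libraries, unlike SOX2 and GRHL3. The AP-2 pair was called in opposite directions, since TFAP2A was higher.

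TFAP2A stood at 64.8 and 70.7 CPM in the labelled libraries against 53.0, 49.3 and 57.1 CPM in TE11 shNC, a 1.26-fold rise (1.12 to 1.42; edgeR adjusted p = 0.000503). GRHL2 stood at 90.3 and 81.8 CPM in the labelled libraries against 70.9, 67.8 and 65.9 CPM in TE11 shNC, a 1.25-fold rise (1.12 to 1.39; edgeR adjusted p = 0.000329). KLF4 stood at 9.65 and 9.77 CPM in the labelled libraries against 6.79, 7.16 and 6.05 CPM in TE11 shNC, 1.44-fold higher (1.12 to 1.86; edgeR adjusted p = 0.00877). In none of the 3 did the groups overlap, which describes these libraries only, and DESeq2 did not call KLF4 (log2 0.52, adjusted p = 0.0878). Of the GRHL pair, GRHL2 was called higher and GRHL3 lower. GRHL3 passed the filter through TE11 shNC alone and so had to differ, so no contrast of the pair is drawn from its call. Antisense genes overlapping TFAP2A held 119 counts (TFAP2A-AS1) and 243 counts (TFAP2A-AS2) in the labelled libraries against 122 and 471 in TE11 shNC, of which the second is listed only in the TE11 table. Marker sums of other cell types also moved with the TE11 groups: the fibroblast markers (6 of 12 with a count in the labelled libraries, 10 of 12 in TE11 shNC) summed to 3.54 to 6.05 CPM in the labelled libraries against 30 to 33.5 CPM in TE11 shNC, and the endothelial markers (7 of 7 in both) to 13.3 to 13.6 against 70.7 to 79.1 CPM. EGFL7 again made up most of the endothelial sum, averaging 11.7 CPM in the labelled libraries and 65.3 CPM in TE11 shNC. COL3A1, DCN, LUM and FAP of fibroblasts were at 0 in the labelled libraries and had counts in TE11 shNC. The columnar epithelium markers (9 of 15 and 12 of 15 with a count), carried by KRT8 and KRT18 in the labelled libraries, summed to 6470 to 6650 CPM there against 3750 to 4150 CPM in TE11 shNC. Of 8 of these markers tested, 3 were called higher and 4 lower (37.5% and 50%, against 35.9% and 42.2% of all genes). KRT7 averaged 6.52 CPM in the labelled libraries against 904 CPM in TE11 shNC, and KRT19 0.116 CPM, on 2 counts, against 14.25 CPM. KRT19, which is among the 4 called lower, passed the filter through TE11 shNC alone and so had to differ. The leukocyte markers (5 of 12 and 6 of 12) summed to 2.2 to 3.26 CPM in the labelled libraries against 2.16 to 2.66 CPM in TE11 shNC. The part of these sums in the results was not tested.

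**Figure D3:**
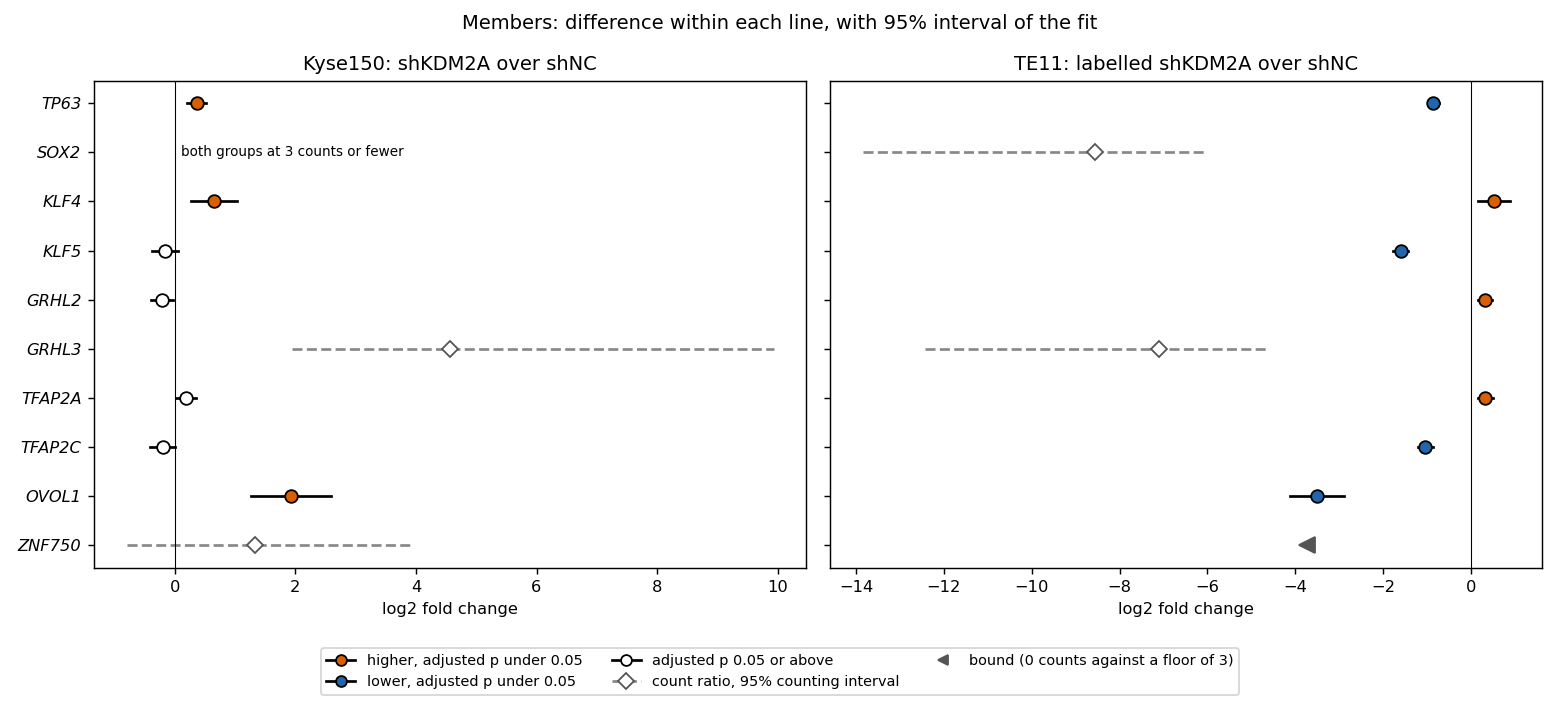
Log2 difference of each factor, shKDM2A over shNC, in Kyse150 (left) and between the TE11 libraries as labelled (right), with 95% intervals of the fit (filled circles: adjusted p under 0.05). Diamonds are ratios of counts with counting intervals and the triangle is a bound for ZNF750. TP63 and OVOL1 lie right of 0 in Kyse150 and left of 0 in TE11, and KLF4 lies right of 0 in both.

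The 2 responses were then set against each other in a single fit of all 9 libraries, which tests the TE11 response, as labelled, minus the Kyse150 response. It was called for 8 of the 10 factors, 1 higher and 7 lower, where 66.9% of 15895 genes tested were called, 33.8% higher and 33.1% lower. SOX2, GRHL3 and ZNF750 entered this fit only through their TE11 shNC counts and so had to differ, and among the other 7 factors 1 was higher and 4 were lower. TP63 and OVOL1, higher in the Kyse150 knockdowns and lower in the libraries labelled TE11 shKDM2A, differed by -1.19 (log2, SE 0.10; edgeR adjusted p = 3.98e-16) and -5.41 (SE 0.45; edgeR adjusted p = 5.54e-19). KLF5 differed by -1.41 (SE 0.13; edgeR adjusted p = 1.6e-14), TFAP2C by -0.81 (SE 0.14; edgeR adjusted p = 4.15e-07) and GRHL2 by 0.55 (SE 0.12; edgeR adjusted p = 6.65e-05). GRHL3 (edgeR adjusted p = 4.11e-13), ZNF750 (2.07e-05) and SOX2 (0.00998) were also called lower, on counts too low for a fitted size to be read as a fold. For SOX2, with 1 count in either Kyse150 group, the call was lost without Kyse150 shKDM2A replicate 1 (edgeR adjusted p = 1). KLF4 was the factor with the closest responses, a difference of -0.10 with an interval of -0.626 to 0.421 (0.648-fold to 1.34-fold; edgeR adjusted p = 0.774). TFAP2A differed by 0.17 (-0.067 to 0.415; edgeR adjusted p = 0.201).

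Levels across the lines give the order of the 4 groups for each factor. The comparisons in this paragraph use the Kyse150 shNC libraries that also serve the Kyse150 comparison, and the TE11 groups of the TE11 comparison, so they are not independent of those above. TE11 shNC had 7 factors higher than Kyse150 shNC and 2 lower, where 79.7% of all genes tested were called, 43.7% higher and 36% lower. SOX2, GRHL3 and ZNF750 again entered only through TE11 shNC and had to differ, and among the other 7 factors 4 were higher and 2 lower. TP63 was 2.28-fold higher in TE11 shNC, KLF5 2.88-fold, TFAP2C 1.60-fold and OVOL1 7.74-fold, and the ratios of counts were 313 for SOX2 (56 to 12400), 116 for GRHL3 (20.6 to 4580) and 11.1 for ZNF750 (3.68 to 55.2). Without Kyse150 shNC replicate 1, which holds the only Kyse150 shNC count of SOX2 and of GRHL3, these became at least 51.4-fold and at least 19-fold higher. Without Kyse150 shNC replicate 2 they were 159 and 58.6, and ZNF750 was 17. TFAP2A was at 0.606 of the Kyse150 shNC level (edgeR adjusted p = 5.07e-12) and KLF4 at 0.666 (edgeR adjusted p = 0.00336). The antisense gene TFAP2A-AS2, which shares 941 exon bases with TFAP2A, is listed for TE11 only. Its part in the TFAP2A levels set across lines, here and below, was not tested. GRHL2 was not called (log2 -0.16; edgeR adjusted p = 0.062), although 5 alternatives called it lower (lowest adjusted p = 0.018).

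The libraries labelled TE11 shKDM2A, set against Kyse150 shNC, had 1 factor higher and 2 lower, where 53.6% of all genes tested were called, 29.1% higher and 24.5% lower. TP63 was 1.28-fold higher (edgeR adjusted p = 7.79e-05), TFAP2A was at 0.773 of the Kyse150 shNC level (edgeR adjusted p = 0.000335) and TFAP2C at 0.789 (edgeR adjusted p = 0.00345). The TFAP2C call was lost without Kyse150 shNC replicate 2 (edgeR adjusted p = 0.0662) or without labelled replicate 2 (0.0995). KLF5 differed by -0.05 (log2, 95% interval -0.249 to 0.146; edgeR adjusted p = 0.704) and KLF4 by -0.04 (-0.44 to 0.352; edgeR adjusted p = 0.9). OVOL1 differed by -0.54 (-1.36 to 0.282; edgeR adjusted p = 0.272) and GRHL2 by 0.17 (-0.002 to 0.35; edgeR adjusted p = 0.0907). SOX2, GRHL3 and ZNF750 had 3 counts or fewer in both of these groups, so no fold is given.

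For each factor the 4 groups were then placed in order of their mean level. TP63 averaged 130.1 ± 6.91 CPM in Kyse150 shKDM2A, 101 ± 7.31 in Kyse150 shNC, 129.5 ± 0.553 in labelled TE11 shKDM2A and 231 ± 4.94 in TE11 shNC (SD, n = 2, 2, 2 and 3). TE11 shNC was thus highest, Kyse150 shNC was lowest, and the groups between them overlapped. OVOL1 averaged 8.59 ± 1.03 CPM in Kyse150 shKDM2A, 2.26 ± 0.844 in Kyse150 shNC, 1.54 ± 0.621 in labelled TE11 shKDM2A and 17.6 ± 1.89 in TE11 shNC. GRHL3 averaged 1.64 ± 0.761 CPM in Kyse150 shKDM2A and 8.18 ± 1.36 CPM in TE11 shNC and held 1 count in each of the other groups. ZNF750 averaged 0.534 ± 0.138 CPM in Kyse150 shKDM2A, 0.213 ± 0.104 in Kyse150 shNC and 2.37 ± 0.383 in TE11 shNC, with 0 counts in labelled TE11 shKDM2A. For these 3 differentiation factors TE11 shNC was highest and Kyse150 shKDM2A came next, without overlap, although counting error spans the difference of ZNF750 between the Kyse150 groups. SOX2 was above 3 counts in TE11 shNC alone.

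KLF5 averaged 45.6 ± 2.54 CPM in Kyse150 shKDM2A, 51.3 ± 2.35 in Kyse150 shNC, 49.6 ± 6.78 in labelled TE11 shKDM2A and 148 ± 4.82 in TE11 shNC, so TE11 shNC stood above 3 groups that overlapped their neighbours. TFAP2C averaged 45.6 ± 4.04 CPM in Kyse150 shKDM2A, 52.7 ± 2.77 in Kyse150 shNC, 41.6 ± 3.39 in labelled TE11 shKDM2A and 84.4 ± 1.76 in TE11 shNC. It was highest in TE11 shNC, then in Kyse150 shNC, and the groups of the knockdown label overlapped. TFAP2A averaged 99.1 ± 1.04 CPM in Kyse150 shKDM2A, 87.7 ± 3.00 in Kyse150 shNC, 67.7 ± 4.21 in labelled TE11 shKDM2A and 53.1 ± 3.91 in TE11 shNC, an order with no overlap between neighbours and with TE11 shNC lowest. KLF4 averaged 15.7 ± 0.375 CPM in Kyse150 shKDM2A, 10.0 ± 0.403 in Kyse150 shNC, 9.71 ± 0.0829 in labelled TE11 shKDM2A and 6.67 ± 0.567 in TE11 shNC, and like TFAP2A it was highest in Kyse150 shKDM2A and lowest in TE11 shNC, with overlap between the middle groups. GRHL2 varied least of the 10, averaging 65.7 ± 3.28 CPM in Kyse150 shKDM2A, 76.2 ± 4.04 in Kyse150 shNC, 86.0 ± 6.03 in labelled TE11 shKDM2A and 68.2 ± 2.50 in TE11 shNC. Kyse150 shKDM2A and TE11 shNC overlapped at its lower end.

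Other genes of the squamous programme were read from lists of named genes, given by their counts and medians beside those of all genes tested. Of all genes, 24.8% were called higher and 23.3% lower in the Kyse150 knockdowns (median log2 0.002), and 35.9% higher and 42.2% lower in the libraries labelled TE11 shKDM2A (median -0.09). List genes such as EHF, PRSS8, SPARC and CDH2 passed the TE11 filter only through TE11 shNC, where they are high, and so had to differ. The TE11 shares and medians, of the lists and of all genes, include such genes, whose number was not counted. Among 27 other transcription factors of squamous epithelium, 9 of 19 tested were called higher in the Kyse150 knockdowns and 4 lower (47.4% and 21.1%; median log2 0.37), and DESeq2 called 4 higher and 4 lower. CEBPB, a differentiation factor, rose 2.32-fold, while SOX15 and BNC1, a basal keratinocyte zinc finger factor, each fell to 0.648 of the controls. In the libraries labelled TE11 shKDM2A, 6 of 24 tested were higher and 17 lower (25% and 70.8%; median log2 -2.00). There the epithelial ETS factors ELF3 and EHF were at 0.0232 and 0.00756 of TE11 shNC, EHF on 8 counts in the 2 labelled libraries, while KLF6 was 9.39-fold higher.

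Of the 24 basal cell genes bound by p63, all tested in both lines, 14 were called higher and 5 lower in the Kyse150 knockdowns (58.3% and 20.8%, against 24.8% and 23.3% of all genes; median log2 0.30). In the libraries labelled TE11 shKDM2A 9 were higher and 12 lower (37.5% and 50%; median -0.19), near the 35.9% and 42.2% of all genes there. The basal keratin KRT14 averaged 48.9 ± 0.912 CPM in the Kyse150 knockdowns and 16.6 ± 0.737 CPM in the controls (SD, n = 2 each). In TE11, the basal keratin KRT15 was at 0.0321 of TE11 shNC in the labelled libraries, whereas COL17A1, a hemidesmosome collagen, was 4.05-fold higher and EGFR, the epidermal growth factor receptor, 3.24-fold higher. Members of this list thus moved both ways in either line. Of the 30 suprabasal and terminal differentiation genes, 14 could be tested in Kyse150, with 6 higher and 2 lower (42.9% and 14.3%, against 24.8% and 23.3% of all genes; median log2 0.32; DESeq2 4 and 1), and 1 lower without replicate 2 of either group. PPL, which encodes the envelope protein periplakin, rose 1.51-fold, and FLG, which encodes filaggrin, fell to 0.202 of the controls, at 10.4 ± 0.281 CPM in shKDM2A libraries and 51.6 ± 0.546 CPM in shNC libraries. In TE11, 16 could be tested, with 3 higher and 11 lower (18.8% and 68.8%, against 35.9% and 42.2% of all genes; median -1.71): PPL was at 0.169 of TE11 shNC and KRT13, a keratin of the suprabasal esophagus, at 0.00713.

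Of the 16 epithelial junction and splicing genes controlled by GRHL factors, all tested in both lines, 7 were higher and 4 lower in the Kyse150 knockdowns (43.8% and 25%, against 24.8% and 23.3% of all genes; median log2 0.05; DESeq2 5 and 4). The claudins CLDN4 and CLDN7 rose 2.49-fold and 2.25-fold and TJP3, a tight junction scaffold, rose 3.93-fold, while PKP3, a desmosomal plakophilin, fell to 0.647. In the libraries labelled TE11 shKDM2A, 4 were higher and 9 lower (25% and 56.2%, against 35.9% and 42.2% of all genes; median -0.17). TJP3 was at 0.0124 of TE11 shNC and PRSS8, a membrane serine protease, at 0.00636 on 7 counts, while PKP3 was 1.96-fold higher. TJP3 and PKP3 were thus called in opposite directions in the 2 comparisons. Of the 10 mesenchymal genes repressed by OVOL and GRHL factors, 5 could be tested in Kyse150, with 1 higher and 1 lower (20% each, near the share of all genes): TWIST1 rose 1.72-fold by edgeR, with the count of higher genes at 0 under DESeq2 or without replicate 2 of either group, and SNAI2, which encodes SLUG, fell to 0.433, at 19.7 ± 1.32 CPM in shKDM2A libraries and 45.9 ± 4.05 CPM in shNC libraries. VIM, at 3.57 ± 0.314 CPM in shKDM2A libraries and 1.91 ± 0.537 CPM in shNC libraries, was not called (edgeR adjusted p = 0.0504). In TE11, 9 could be tested, with 5 higher and 4 lower (55.6% and 44.4%, against 35.9% and 42.2% of all genes; median log2 2.12). SNAI2 was 7.07-fold and FN1, fibronectin, 5.97-fold higher in the labelled libraries, whereas SPARC, a matrix protein, had 2 counts in the labelled libraries against 13941 in TE11 shNC, and CDH2, N-cadherin, 0 against 476.

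**Figure D4:**
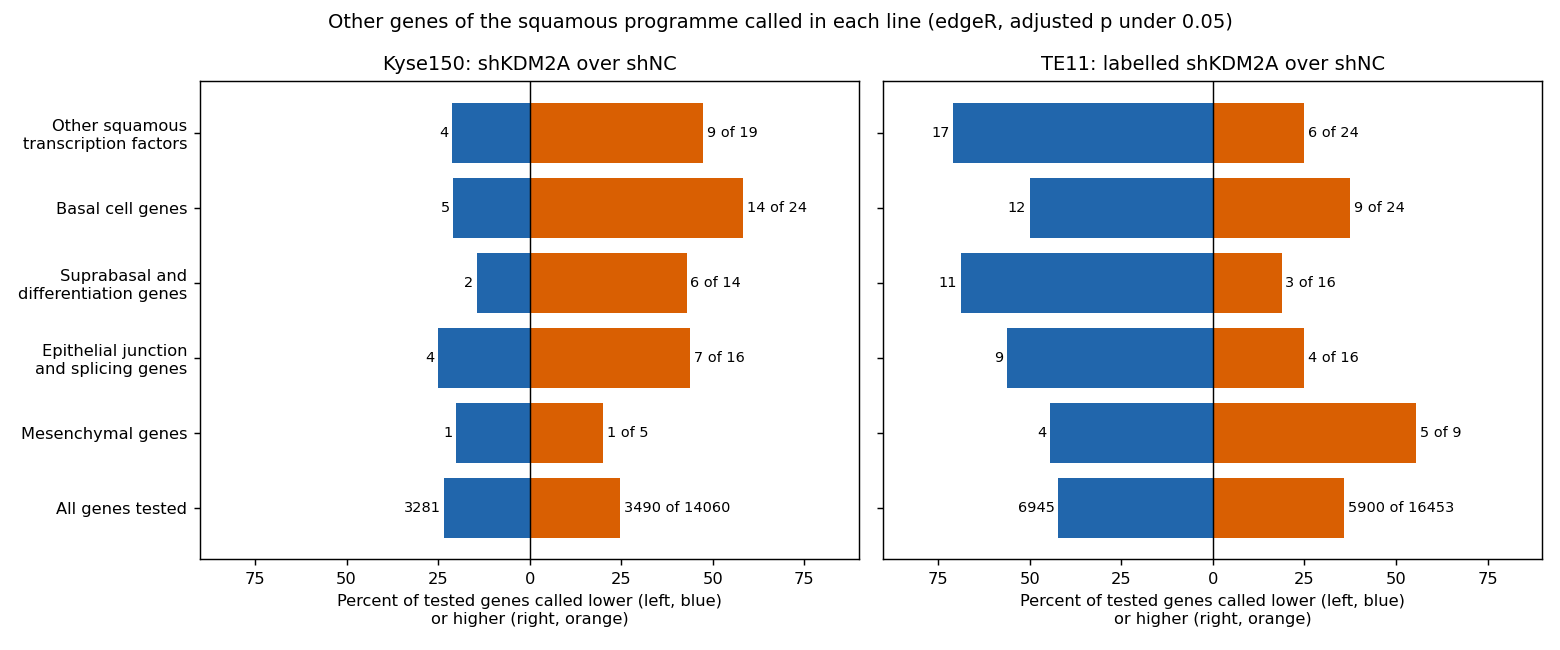
Percent of the tested genes of each list called lower (left, blue) or higher (right, orange) for shKDM2A over shNC in Kyse150 and between the TE11 libraries as labelled, with counts beside the bars and all genes tested in the bottom row. Of the other squamous transcription factors, 9 of 19 are higher in Kyse150 and 17 of 24 lower in TE11. The lower shares in TE11 include genes that passed the filter only through TE11 shNC.

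The genes whose pattern over the 4 group means was most like that of each factor were found among 10736 genes by the root mean square difference of log2(CPM + 1), centred over the groups. The closest to TP63 were TTC13 (0.0138), HADHB (0.0145) and DNPH1 (0.0184), and HADHB, for example, averaged 92 CPM in Kyse150 shKDM2A, 71.7 in Kyse150 shNC, 90.5 in labelled TE11 shKDM2A and 166 in TE11 shNC. For OVOL1 they were DLX4 (0.068), RASD2 (0.0797) and PTP4A3 (0.0845), and for ZNF750 they were DLX3 (0.0441), KIAA0040 (0.0518) and PIR (0.0567). DLX3 and DLX4 are homeobox genes. For SOX2 they were ARSI, CES1 and PNPLA3, for KLF4 DENND5A, NFS1 and TSPAN33, for KLF5 ENOSF1, SOCS1 and PCSK6, and for GRHL2 NEK4, CLIC1 and BANF1. For GRHL3 they were SRPX2, PSCA and TRIB2, for TFAP2A P2RY2, TBC1D14 and SMYD4, and for TFAP2C ARHGEF39, DMTF1 and ZFYVE21. Only 4 points enter each pattern, and the lists changed when the 9 libraries were used in place of the group means: 2 of the 3 names were kept for TP63, 1 for KLF4, KLF5, GRHL2 and TFAP2C, and 0 for the other 5 factors.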

How the data were processed

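The 10 factors and the other gene lists were chosen with earlier results of these data known. The authors deposited raw whole-number counts per gene, with no normalization, as a table for each line. RNA was selected with oligo(dT) beads and sequenced as paired ends, per the labels' protocols, which speak of 3 replicates; only TE11 shNC has 3 libraries here. Tools named in the submitters' processing notes are HISAT2 2.1.0, HTSeq 0.9.1, bcl2fastq 2.19 and DESeq2. The notes list GRCh38.p13 and GRCh37.p13 with no role for either. The tables list 57820 (Kyse150) and 60683 (TE11) genes. Of each column 42.3% to 44.5% fell on no gene, 2.94% to 6.78% had more than 1 alignment and 1.85% to 2.72% were ambiguous; these rows were left out of library sizes and tests. Replicates differed by more than counting noise (chi-square per degree of freedom 1.62 to 4.91 over genes with at least 50 counts summed over both), so all were kept.

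Identifiers were named from a table of gene names and GENCODE 29 (90.5% in Kyse150, 96.5% in TE11). Genes passing filterByExpr (minimum count 10, minimum total 15) were tested with edgeR 4.0.16 in R 4.3.3 (TMM, robust quasi-likelihood, group as the only term), each line alone, with p-values adjusted by Benjamini-Hochberg over every gene tested (threshold 0.05). Differences between lines came from 1 fit of all 9 libraries over identifiers in both tables. Levels are CPM from that scaling, so folds from the fit of 1 line can differ slightly from ratios of printed levels. Groups with 1 to 3 counts were given a ratio with an exact 95% interval and groups with 0 a bound against 3 counts over the group; both reflect counting error alone, and reads without molecular identifiers are not separate molecules. Beside KDM2A and the 10 factors, the genes named are at most the 4 of each list with the smallest p per line and the 3 closest in pattern to each factor. Some genes that meet this rule are not reported here. The fits were tested on simulated data, the outcome of which is not reported here, and nothing in the text rests on it. Alternatives were DESeq2 1.42.0, 2 other scalings, no filter or a CPM above 1, the replicate number as a block, a joint fit, and each library left out.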

Additional observations from a re-analysis of the deposited data

Results flagged for a closer look

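For 8 of the 10 factors the response in TE11, between the libraries as labelled, differed from that in Kyse150 by the edgeR contrast of the 2 responses. The log2 difference, TE11 minus Kyse150, was 0.55 for GRHL2, -0.81 for TFAP2C, -1.19 for TP63, -1.41 for KLF5 and -5.41 for OVOL1. The fitted differences of SOX2 (-8.3), ZNF750 (-8.63) and GRHL3 (-11.09) rest on groups with 0 to 3 counts, depend on the prior count of the fit and are not to be read as folds. Those 3 genes passed the filter on low counts only through TE11 shNC, where they are high, and so had to differ. In the same contrast 66.9% of all genes tested were called, and KDM2A was not lower in the libraries labelled TE11 shKDM2A.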

How the results depend on the processing

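Signs were the same under every alternative for all factors tested in the Kyse150 comparison, the TE11 comparison, the difference of the responses and TE11 shNC over Kyse150 shNC. Sign and side of the threshold held for 74 of 77 values in Kyse150, 118 of 120 in TE11, 149 of 150 for the difference of the responses, 145 of 150 for TE11 shNC over Kyse150 shNC and 141 of 150 for labelled TE11 shKDM2A over Kyse150 shNC. DESeq2 called 3931 genes in Kyse150 in place of 6771, and KLF4 was lost in both lines. Leaving out 1 library gave 5409 to 5916 called genes in Kyse150 and 0 to 1 factors lower, the 1 being GRHL2 without shNC replicate 1 (adjusted p = 0.0493); it gave 1 to 2 factors lower for labelled TE11 shKDM2A over Kyse150 shNC. In that comparison values that were not called changed sign: with single libraries left out, the log2 value of SOX2 ran from -2.55 to 2.38, of GRHL3 from -2.56 to 2.38, of KLF5 from -0.19 to 0.088 and of KLF4 from -0.081 to 0.0058. SOX2 (2.38), GRHL3 (2.38) and KLF5 (5e-04) changed sign without Kyse150 shNC replicate 1, SOX2 (0.63) without labelled replicate 1, and KLF5 (0.088) and GRHL3 (0.69) without labelled replicate 2. CSF1R, a leukocyte marker, ran from -0.11 to 0.58 in TE11. The cause was not tested. The median log2 of all genes moved by over 0.1 in TE11 (-0.09) under DESeq2 (-0.462) and with no filter (-0.457), in the difference of the responses (-0.063) under these (-0.477 and -0.492) and upper-quartile scaling (-0.181), and in TE11 shNC over Kyse150 shNC (0.121) under DESeq2 (0.233) and with no filter (0.283). Same-numbered libraries did not deviate together (r = -0.0683 in Kyse150 and -0.00511 in TE11, 2 shared numbers each), so the numbers were not taken as pairs. With the replicate number as a block, 6395 genes were called in Kyse150, 11946 in TE11, 10214 for the difference, 12101 for TE11 shNC over Kyse150 shNC and 8357 for labelled TE11 shKDM2A over Kyse150 shNC, and KLF4 in TE11 had an adjusted p of 0.0521. With 2 libraries in 3 of the 4 groups, and SOX2, GRHL3 and ZNF750 at 0 to 7 counts in several libraries, small differences in these factors were not detectable.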
